A study of Mus musculus with 4 samples.

Results

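The set described here holds 40 genes of the mitotic spindle and kinetochore, listed by symbol from their known functions and sorted into 8 role groups, out of 25239 gene symbols counted in mouse embryonic stem cells (mESC). The set and the lists set beside it were chosen with earlier results of these data known. Every symbol was found in the count tables, and all 40 were abundant enough to be tested. The 4 libraries came from polyadenylated RNA of Ogt fl/fl cells, in which both alleles of Ogt, the gene of the enzyme that adds O-linked N-acetylglucosamine to proteins, carry sites for recombination. The Ogt iKO group (2 libraries) was exposed to 4-OHT, a tamoxifen metabolite that activates inducible recombinases, over 6 days. The control group (2 libraries) had the same genotype and was kept without 4-OHT. All cells grew on mitomycin C-treated mouse embryonic fibroblasts (feeders) in medium with LIF, and were sorted as viable cells with antibodies to CD90.2 and CD326. The labels give CD90.2 (Thy1) as the mark of the stem cells and CD326 (Epcam) as that of the feeders to be removed, the reverse of their usual use, so how far the sort removed feeders is not certain. A gate on YFP is described for the treated cells alone. No group with 4-OHT and intact Ogt was described, so loss of Ogt cannot be told apart from effects of the ligand, the recombinase or the YFP gate.

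In mitosis the kinetochore, a protein assembly built on the centromere, ties each chromosome to spindle microtubules. A checkpoint holds back chromosome separation until all kinetochores are attached. Kinases and cyclins start the process, motor proteins shape the spindle, and midzone proteins bring about cell division. Many of these genes are transcribed mainly in the late part of the cell cycle, so that in bulk RNA their level follows the share of cells in that part as well as transcription in each cell; fewer cells of a type and less RNA per cell cannot be told apart here. mESC are known for rapid cycling.

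Most of the set was lower in Ogt iKO cells. In edgeR's quasi-likelihood test at an adjusted p of 0.05, 33 of the 40 genes fell, 1 rose and 6 were not called, where 32.0% of the 14525 genes tested fell and 33.2% rose. The median log2 fold change (Ogt iKO over control) was -0.57 over the 40 genes and 0.02 over all genes tested. Single values ran from -1.84 for Cenpk to 0.19 for Cenpt, with standard errors (SE) between 0.0563 and 0.129. The change was moderate in size: 19 genes fell by over 1.5-fold, as did 2475 of all genes tested, and 3 fell by over 2-fold, as did 6.17% of all genes. The 2 groups of libraries did not overlap for 34 of the 40 genes, against 83.2% of all genes, so the absence of overlap did not set these genes apart. Levels in CPM (counts set to a common library size and scaled by the trimmed mean of M-values, TMM), summed over the 40 genes, came to 4996 and 5527 in the Ogt iKO libraries and to 7485 and 7591 in the controls. The summed level of the Ogt iKO group was 69.8% of control, where the same sum over all genes tested was 88.9% of control. By role group it ran from 59.3% for the passenger complex to 79.6% for the spindle motors.

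**Figure D1:**
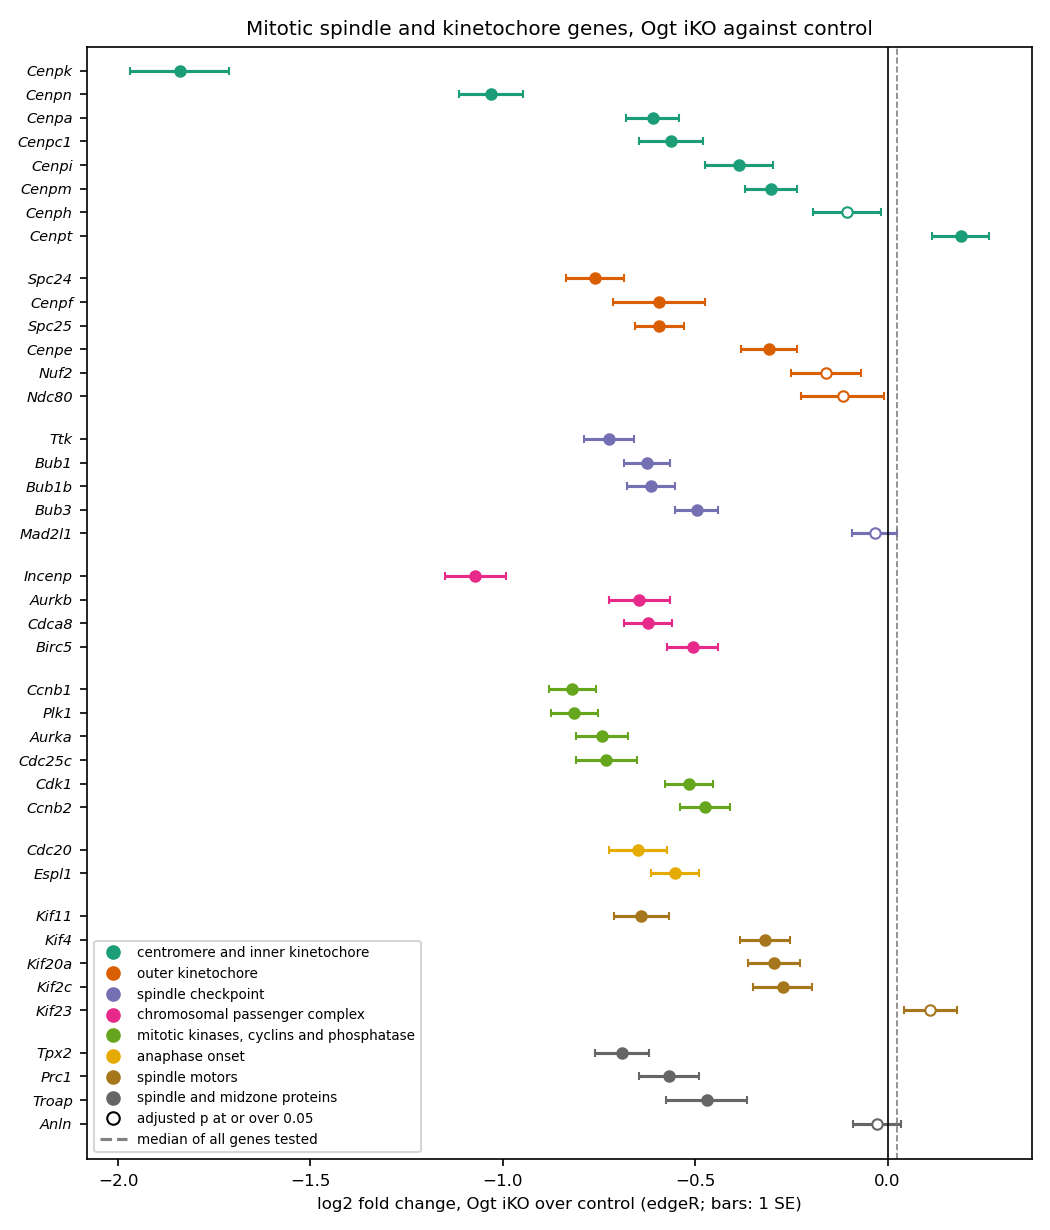
Log2 fold change of each of the 40 genes (Ogt iKO over control, n = 2 libraries per group) by role group; bars are 1 SE, and filled points passed an adjusted p of 0.05. Nearly all points lie below 0, Cenpk lies lowest at -1.84, and Cenpt at 0.19 is the 1 filled point above 0.

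The libraries held 14668489 to 16504204 counts, and 3 counts, taken as the detection floor, correspond to 0.182 to 0.205 CPM. Ogt had 437 and 389 counts in Ogt iKO and 2963 and 3108 in the controls, a log2 fold change of -2.96 (SE 0.0676, edgeR adjusted p 2.49e-07), or 12.9% of control. All 8 stem cell markers were present in every library, and all 8 fell (median -0.67). The 12 feeder markers had a summed CPM of 2714 in Ogt iKO replicate 1 and 715 in replicate 2, with 1374 and 1455 in the controls, so that the first of these stood apart. Col1a1 alone had 15453 counts there, against 2785, 4549 and 4809 in the other libraries. Of the 12 feeder markers 1 rose (Pdgfrb, 428 and 245 counts against 85 and 121, edgeR adjusted p 0.000533), 1 fell (Vim, 4366 and 2426 against 6375 and 5234, adjusted p 0.00375), 10 were not called and none was at 0. For Pdgfrb both Ogt iKO libraries were above both controls and for Vim both were below, so these genes did not follow the summed level. Thy1, one of them, had 437 and 138 counts against 241 and 240, and Epcam, one of the stem cell markers, 4794 and 4452 against 5376 and 4704. Of 6 primitive endoderm markers 4 rose (Dab2, Gata4, Sox17 and Foxa2), Gata6 and Pdgfra were not called, and none fell. Their summed CPM was 94.0 and 74.3 against 25.2 and 22.3. Dab2 alone made up 69.8 and 58.7 against 14.1 and 10.7 of this sum, and the other 5 summed to 24.2 and 15.6 against 11.1 and 11.6. Of 6 trophectoderm markers 3 rose (Krt8, Krt18 and Hand1), 1 fell (Tfap2c) and Cdx2 was not called. Their summed CPM was 350 and 365 against 120 and 109. Krt18 made up 238 and 243 against 22.2 and 17.3 of it. The other 5 summed to 111 and 123 against 97.3 and 91.5. Elf5, a defining marker, had 2 counts in Ogt iKO replicate 1 and none in the other libraries. The part of these other cell types in the results below was not tested.

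**Figure D2:**
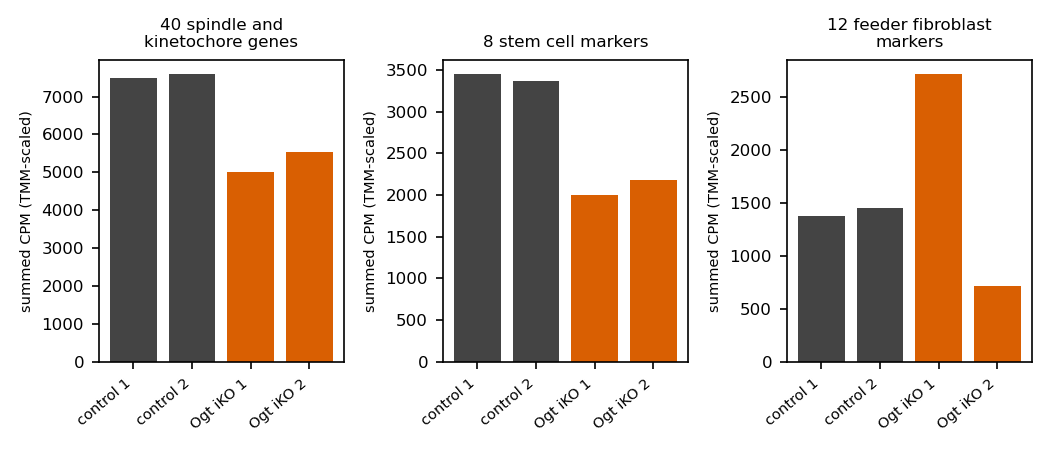
Bars give the summed CPM (TMM-scaled, from 0) of the 40 spindle and kinetochore genes, the 8 stem cell markers and the 12 feeder markers in each of the 4 libraries. Both Ogt iKO bars are below both control bars for the 40 genes (4996 and 5527 against 7485 and 7591) and the stem cell markers, whereas the feeder bars of the Ogt iKO libraries, 2714 and 715, lie on either side of the controls.

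The library with the high feeder signal was also the lower of the Ogt iKO pair throughout the set. All 40 genes had a lower CPM in Ogt iKO replicate 1 than in replicate 2, where 50.2% of all genes tested did. In Ogt iKO replicate 2, 33 of the 40 genes were below both controls and 3 were above both. The matching share over all genes tested is not given, and the part of feeder cells was not tested. Without Ogt iKO replicate 1 the median of the set was -0.48 and 32 genes were called lower, and without Ogt iKO replicate 2 the median was -0.66 with 35 called lower. Where 1 library remains in a group, it is assumed to vary like the libraries of the other group.

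**Figure D3:**
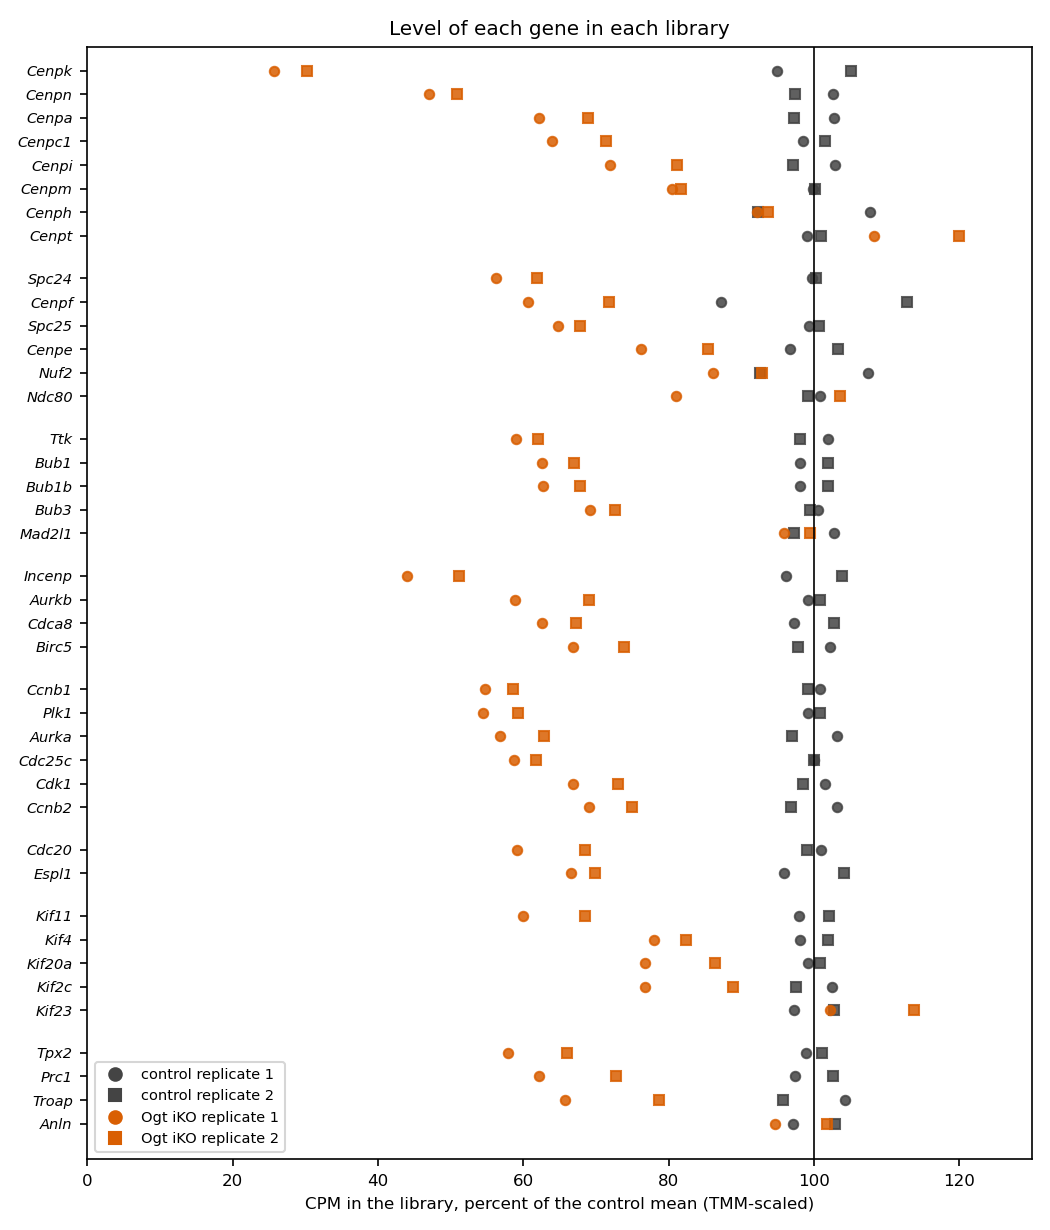
TMM-scaled CPM of each of the 40 genes in each of the 4 libraries, as a percent of the control mean, in role groups; colour marks the group and shape the replicate. The Ogt iKO libraries lie below the control libraries for most genes, and replicate 1 lies below replicate 2 for all 40.

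Promoter sequences are shown for 10 genes to let a short sequence box be read beside the calls, with genes that follow and genes that go against the split given below. Mitotic genes are known to be controlled through CCAAT boxes, bound by the factor NF-Y, and through the cell cycle genes homology region. That region, read by the DREAM and MuvB complexes, was searched as TTTGAA alone, so other forms of it were not counted. Windows from 250 bases before to 50 after the start were taken from RefSeq (GRCm38.p6) for 34 of the 40 genes. Ccnb2 (cyclin B2), Aurka, Spc25, Ttk, Kif11 and Cenpk fell, and Mad2l1, Ndc80, Nuf2 and Kif23 were not called. The lines give the 100 bases before each start, 5′ to 3′ on the strand of the gene. Capitals mark CCAAT or its complement ATTGG and, in Kif11, TTCAAA, the complement of TTTGAA.
Ccnb2: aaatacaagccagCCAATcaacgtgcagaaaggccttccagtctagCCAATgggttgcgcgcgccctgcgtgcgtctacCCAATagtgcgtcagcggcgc
Aurka: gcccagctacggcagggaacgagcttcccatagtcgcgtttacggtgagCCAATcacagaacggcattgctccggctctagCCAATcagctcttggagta
Spc25: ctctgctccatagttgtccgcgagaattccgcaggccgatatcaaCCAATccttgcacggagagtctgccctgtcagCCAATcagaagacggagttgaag
Ttk: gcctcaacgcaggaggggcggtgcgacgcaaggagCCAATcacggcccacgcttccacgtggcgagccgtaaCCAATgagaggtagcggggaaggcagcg
Kif11: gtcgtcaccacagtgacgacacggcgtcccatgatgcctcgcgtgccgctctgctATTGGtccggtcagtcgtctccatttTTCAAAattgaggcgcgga
Cenpk: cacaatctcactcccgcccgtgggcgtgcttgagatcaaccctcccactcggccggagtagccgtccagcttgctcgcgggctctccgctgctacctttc
Mad2l1: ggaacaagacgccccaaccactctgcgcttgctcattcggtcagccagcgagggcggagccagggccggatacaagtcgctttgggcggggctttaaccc
Ndc80: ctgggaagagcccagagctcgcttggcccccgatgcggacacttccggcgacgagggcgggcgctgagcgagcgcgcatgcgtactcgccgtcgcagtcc
Nuf2: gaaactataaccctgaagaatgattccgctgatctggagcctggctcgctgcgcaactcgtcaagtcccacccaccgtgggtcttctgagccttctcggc
Kif23: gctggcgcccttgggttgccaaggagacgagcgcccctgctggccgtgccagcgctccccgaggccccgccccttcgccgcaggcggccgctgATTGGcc

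These stretches lie at chr9:70421555-70421654 (minus strand) for Ccnb2, chr2:172370571-172370670 (minus) for Aurka, chr2:69206214-69206313 (minus) for Spc25, chr9:83834589-83834688 (plus) for Ttk, chr19:37376282-37376381 (plus) for Kif11 and chr13:104228511-104228610 (plus) for Cenpk. Those of the genes that were not called lie at chr6:66535121-66535220 (plus) for Mad2l1, chr17:71526858-71526957 (minus) for Ndc80, chr1:169531465-169531564 (minus) for Nuf2 and chr9:61946800-61946899 (minus) for Kif23. Ccnb2 holds 3 CCAAT boxes in the stretch, the first 2 of them 33 bases apart. Aurka and Spc25 each hold 2 boxes 32 bases apart, and Ttk holds 2 boxes 37 bases apart. The stretches of Mad2l1, Ndc80 and Nuf2 hold neither motif, but nor does that of Cenpk, which fell most, and Kif23, which was not called, holds ATTGG. Of all 27 genes that fell and have a window, 20 hold CCAAT in this stretch, and 7 hold neither motif there (Cenpk, Cenpc1, Cenpi, Cenpm, Bub1b, Birc5 and Kif2c). Of the 6 that were not called 1 holds CCAAT there and 5 hold neither motif. Of the 10 genes shown, the wider window adds TTTGAA to Ccnb2, Aurka, Spc25, Ttk, Ndc80 and Kif23, and CCAAT to Cenpk. Kif23, which was not called, thus holds both motifs in its window. Among the other genes that were not called it adds CCAAT to Cenph and TTTGAA to Anln. A match is a description of letters and not a measured binding site, and its absence says nothing of the factor.

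Over the whole windows, with both strands searched and overlapping matches allowed, CCAAT was present in 27 of the 34 genes (79.4%) and in 10248 of 27025 RefSeq promoters of the same length (37.9%). TTTGAA was present in 21 of the 34 (61.8%) and in 18.1% of all promoters, and both motifs together in 18 (52.9%) against 7.12%. Of the 27 genes with CCAAT, 25 fell (median log2 fold change -0.59). The other two, Cenph and Kif23, were not called. Of the 7 without it, Birc5 and Kif2c fell, Cenpt rose, and Nuf2, Ndc80, Mad2l1 and Anln were not called (median -0.12). The split was narrower elsewhere: 38.4% of 4474 tested genes with CCAAT fell, against 29.0% of 7019 without it, and in the list of other spindle and kinetochore genes described below the shares were 83.3% of 48 and 62.8% of 43. For TTTGAA 18 of 21 genes with it fell and 9 of 13 without it. Over all genes tested the shares that fell were 36.4% of 1349 with it and 32.2% of 10144 without it. In the list of other spindle and kinetochore genes they were 77.1% of 35 and 71.4% of 56. The windows rest on the starts that RefSeq lists, and for 3 genes the start lies well inside the gene as annotated by GENCODE: 3867 bases for Kif2c, 2394 for Cdca8 and 1270 for Cenpt, against at most 412 for the other genes. Without these 3, which were picked after their values were seen, 24 of 26 genes with CCAAT fell and 1 of 5 without it. Cenpk has 3 windows in the table and Bub3 and Prc1 have 2 each, of which the first was used; CCAAT is in every one of them. The split by CCAAT was seen after the fold changes were known, and it was given no test.

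**Figure D4:**
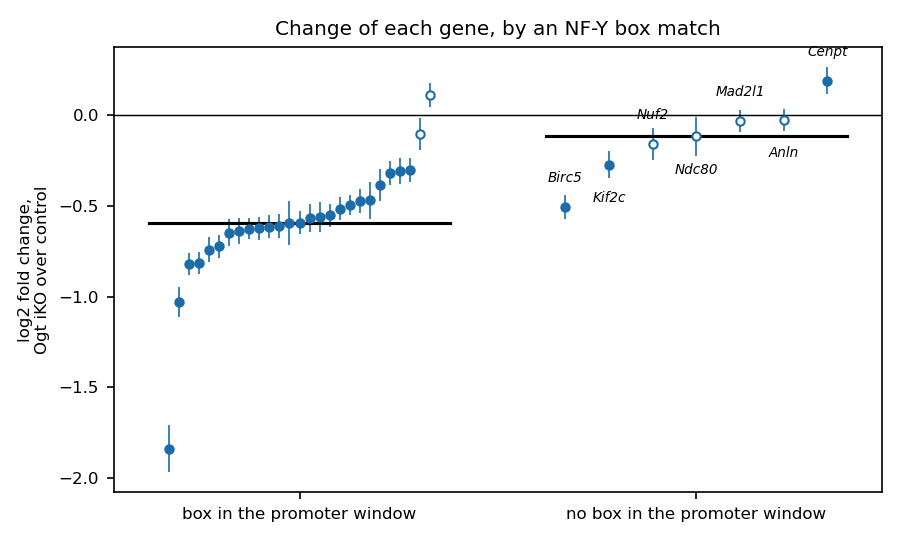
Log2 fold change of the 34 genes with a RefSeq promoter window, split by whether the window holds the box bound by NF-Y; points are single genes, bars 1 SE, filled points passed an adjusted p of 0.05 and lines are medians. Genes with the box centre on -0.59 and those without it on -0.12, and the 7 genes without it are labelled.

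Among the 8 centromere and inner kinetochore genes 6 fell, 1 rose and 1 was not called (median -0.48), and the spread of this group was the widest of the 8, from -1.84 to 0.19. Cenpk, a subunit of the constitutive centromere-associated network, had 131 and 140 counts in Ogt iKO and 438 and 481 in the controls. Both Ogt iKO values lay far below both controls, at 27.9% of control (log2 fold change -1.84, SE 0.129, edgeR adjusted p 8.91e-06). Cenpn, which reads the centromeric nucleosome, had 510 and 500 counts against 1007 and 946, with no overlap of the groups (log2 fold change -1.03, SE 0.0822, adjusted p 1.61e-05). Cenpa, the centromeric histone H3 variant itself, fell by 0.61 on the log2 scale, Cenpc1, the scaffold that links it to the outer kinetochore, by 0.56, Cenpi by 0.39 and Cenpm by 0.30. The calls of Cenpi and Cenpm were lost with scaling by library totals (adjusted p 0.0533 and 0.109) and when tested against a fold of 1.2 (0.0637 and 0.198).

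Cenpt, which recruits the outer kinetochore in parallel to Cenpc1, was the 1 gene of the set that rose. It had 1409 and 1416 counts in Ogt iKO and 1167 and 1178 in the controls, and the groups did not overlap (log2 fold change 0.19, SE 0.0736, edgeR adjusted p 0.0478). The call was lost with DESeq2 (adjusted p 0.202), with the median-ratio size factors of that tool (RLE) in edgeR (0.0685) and without a count filter (0.0891), and it was lost without Ogt iKO replicate 2 (0.09, adjusted p 0.367), control replicate 1 (0.17, 0.186) or control replicate 2 (0.19, 0.136). Cenph, a partner of Cenpk in the same subcomplex, had 982 and 905 counts against 1038 and 882, with overlapping groups, and was not called (log2 fold change -0.11, SE 0.089, adjusted p 0.322).

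Cenpk and its 3 partners in this subcomplex differed in size of change: Cenpk counts over the sum of Cenph, Cenpi and Cenpm were 0.0490 and 0.0554 in the Ogt iKO libraries and 0.144 and 0.170 in the controls. The ratio of Cenpn to Cenpt was 0.362 and 0.353 against 0.863 and 0.803. These ratios within a library do not depend on scaling, but they and the others given below were chosen after the values were seen and have no test. Cenph lies 2750 bases from Ccnb1 on chromosome 13 on the same strand, and Ccnb1 fell by 0.82 on the log2 scale.

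Of the 6 outer kinetochore genes 4 fell and 2 were not called (median -0.45). The NDC80 complex, the main microtubule attachment of the kinetochore, is a rod of Ndc80 and Nuf2, which hold the microtubule, and Spc24 and Spc25, which face the centromere. Spc24 had 845 and 844 counts in Ogt iKO and 1356 and 1351 in the controls, with the groups well apart (log2 fold change -0.76, SE 0.0755, edgeR adjusted p 4.98e-05). Spc25 fell by 0.59 on the log2 scale. Ndc80 had 1031 and 1196 counts against 1161 and 1133, and the groups overlapped because Ogt iKO replicate 2 lay above both controls in CPM (log2 fold change -0.12, SE 0.109, adjusted p 0.368). Without that library Ndc80 was called lower (-0.33, adjusted p 0.00327), and without Ogt iKO replicate 1 its value was 0.06. Nuf2 was not called either (-0.16, adjusted p 0.148), but was called lower without Ogt iKO replicate 2 (-0.24, 0.0395) or control replicate 2 (-0.27, 0.0479).

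The summed counts of Spc24 and Spc25 over those of Ndc80 and Nuf2 were 0.979 and 0.888 in the Ogt iKO libraries and 1.28 and 1.40 in the controls. Cenpf, a large protein of the outer corona of the kinetochore, had 2191 and 2351 counts against 2850 and 3649, a wide gap within the controls (log2 fold change -0.59, SE 0.12, edgeR adjusted p 0.0025), and the call was lost with a robust estimate of the spread (adjusted p 0.062). Cenpe, the kinetochore motor that moves chromosomes to the spindle equator, fell by 0.31 on the log2 scale, a call lost with library totals (adjusted p 0.12) and against a fold of 1.2 (0.186).

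Of the 5 spindle checkpoint genes 4 fell (median -0.61). Ttk, the kinase Mps1 that starts the signal at unattached kinetochores, had 1188 and 1133 counts in Ogt iKO and 1857 and 1770 in the controls, with no overlap (log2 fold change -0.72, SE 0.0643, edgeR adjusted p 2.82e-05). Bub1, the kinase that gathers the other checkpoint proteins, had 3525 and 3426 counts against 5003 and 5147, again with no overlap (-0.63, SE 0.06, adjusted p 4.15e-05). Bub1b, a subunit of the complex that blocks Cdc20, fell by 0.61 on the log2 scale and Bub3, its partner, by 0.50.

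Mad2l1, which is turned into the Cdc20 inhibitor at unattached kinetochores, was the exception in this group. It had 2566 and 2417 counts in Ogt iKO and 2489 and 2336 in the controls, and the groups overlapped in CPM (log2 fold change -0.03, SE 0.0592, edgeR adjusted p 0.637), with a sign that turned positive when scaled by library totals (0.14) or upper quartiles (0.01). The ratio of Bub1b to Mad2l1 was 1.56 and 1.62 in the Ogt iKO libraries against 2.27 and 2.49.

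All 4 genes of the chromosomal passenger complex, which corrects faulty attachments and later acts in the midzone, fell (median -0.63), and the summed level of the complex was 59.3% of control, or 66.4% without Incenp. Incenp, its scaffold, had 2199 and 2321 counts in Ogt iKO and 4345 and 4657 in the controls. Both treated values were far below both controls (log2 fold change -1.07, SE 0.0804, edgeR adjusted p 1.23e-05). Aurkb, its kinase, had 1347 and 1432 counts against 2054 and 2068, with no overlap (-0.65, SE 0.0794, adjusted p 0.000154). Birc5 (survivin), which docks the complex on chromatin, changed least of the 4, with 1769 and 1772 counts against 2445 and 2320 and no overlap (-0.51, SE 0.0673, adjusted p 0.000236). Cdca8 (borealin) fell by 0.62 on the log2 scale. Incenp counts over the sum of its 3 partners were 0.423 and 0.444 in the Ogt iKO libraries and 0.585 and 0.625 in the controls, so that the scaffold was lower relative to the rest of the complex.

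All 6 mitotic kinases, cyclins and phosphatase fell, with the lowest median of the 8 groups (-0.74) and a narrow range from -0.82 to -0.47. Ccnb1, the cyclin that with Cdk1 drives entry into mitosis, had 1650 and 1604 counts in Ogt iKO and 2751 and 2683 in the controls, with the groups well apart (log2 fold change -0.82, SE 0.0609, edgeR adjusted p 1.18e-05). Plk1, a kinase of centrosome maturation and kinetochore function, had 2433 and 2398 counts against 4008 and 4036, also with no overlap (-0.81, SE 0.0612, adjusted p 1.23e-05). Ccnb2, the other B-type cyclin, changed least, with 2840 and 2802 counts against 3846 and 3573 and no overlap (-0.47, SE 0.065, adjusted p 0.000283). Aurka, the centrosomal Aurora kinase, fell by 0.74 on the log2 scale, Cdc25c, a phosphatase that activates Cdk1, by 0.73, and Cdk1 by 0.52. The ratio of Aurka to Aurkb was 1.97 and 1.86 in the Ogt iKO libraries and 2.13 and 1.97 in the controls, with the groups overlapping. Reads of Ccnb1 could be split with near-identical copies: 4 other annotated genes share at least 95% identity over at least 20% of its transcript, the largest match covering 51.9%.

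Both genes of anaphase onset fell. Cdc20, the activator of the anaphase-promoting complex, had 4138 and 4349 counts in Ogt iKO and 6394 and 6221 in the controls, with no overlap (log2 fold change -0.65, SE 0.0744, edgeR adjusted p 0.000107). Espl1 (separase), the protease that opens cohesin rings, had 3226 and 3072 counts against 4207 and 4532, with no overlap (-0.55, SE 0.0633, adjusted p 0.000105). Cdc20 was the most abundant gene of the set per kilobase of exon, at 219 CPM per kilobase in the controls and 140 in the Ogt iKO group. It was followed in the controls by Ccnb2 at 157, Plk1 at 119 and Aurka at 108 CPM per kilobase, each apart from the next beyond the spread of its libraries. Cenpk was lowest at 5.70 CPM per kilobase in the controls and 1.59 in the Ogt iKO group. For 19 of the 39 neighbours in this order the control libraries overlapped, and the order was much alike in the Ogt iKO group (Spearman's rho 0.96 over 40 genes, which share the libraries).

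Of the 5 spindle motors 4 fell, with the smallest median change of the 8 groups (-0.29). Kif11 (Eg5), which pushes the spindle poles apart, had 3815 and 3953 counts in Ogt iKO and 5645 and 5825 in the controls, with no overlap (log2 fold change -0.64, SE 0.0722, edgeR adjusted p 9.76e-05). Kif4, a chromokinesin, had 1339 and 1282 counts against 1523 and 1569, with no overlap but a small gap (-0.32, SE 0.0654, adjusted p 0.00268). Kif20a, a kinesin of the midzone, fell by 0.29 on the log2 scale, and Kif2c (MCAK), which takes microtubules apart at the kinetochore, by 0.27. With scaling by library totals the calls of Kif4 (adjusted p 0.072), Kif20a (0.127) and Kif2c (0.25) were lost, as they were against a fold of 1.2 (0.139, 0.228 and 0.333), and that of Kif2c also without Ogt iKO replicate 1 (log2 fold change -0.16, adjusted p 0.0666) or control replicate 1 (0.0601). Kif23, the motor of the centralspindlin complex at the midzone, had 2710 and 2735 counts against 2334 and 2441, overlapped in CPM, and was not called (0.11, SE 0.0686, adjusted p 0.184). It was called higher with library totals (0.28, adjusted p 0.00719) and without Ogt iKO replicate 1 (0.19, 0.0352).

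Of the 4 spindle and midzone proteins 3 fell (median -0.52). Tpx2, which activates Aurka and nucleates microtubules near chromatin, had 4436 and 4586 counts in Ogt iKO and 6855 and 6945 in the controls, with the groups well apart (log2 fold change -0.69, SE 0.0708, edgeR adjusted p 5.79e-05). Prc1, which bundles the microtubules of the midzone, had 3147 and 3342 counts against 4463 and 4656, with no overlap (-0.57, SE 0.0787, adjusted p 0.0003). Troap, a spindle-associated protein, fell by 0.47 on the log2 scale.

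Anln (anillin), which organises the contractile ring, was not called. It had 3665 and 3576 counts in Ogt iKO and 3407 and 3574 in the controls, with overlapping CPM (log2 fold change -0.03, SE 0.0623, edgeR adjusted p 0.724), and its sign turned positive when scaled by library totals (0.14) or upper quartiles (0.02). The ratio of Prc1 to Kif23, both of the midzone, was 1.16 and 1.22 in the Ogt iKO libraries and 1.91 in each control. Of the 6 genes that were not called, Cenph, Ndc80 and Nuf2 also turned positive with library totals, at 0.06, 0.05 and 0.01.

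Level, length and position are given as descriptions. Over the 40 genes the Spearman correlation of log2 fold change with control level was -0.18 and with exon length 0.30, over genes that share the libraries. The genes lie on 16 autosomes and the X chromosome, with at most 5 on 1 chromosome. Exons on the opposite strand cover over 10% of the exon length of 4 genes: Kif20a (29.3%, by Cdc23), Kif4 (15.1%, Pdzd11), Cdc25c (12.7%, Gm3550) and Prc1 (11.1%, Rccd1). The strand used in counting is not given in the sources used here, so their values could include reads of those neighbours. The same overlaps appear as matches in a search of both strands for near-identical transcripts. They cover 34.7% of the transcript of Kif20a (Cdc23) and 23.7% of that of Cdc25c (Gm3550), at 95% identity or more.

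Another 105 spindle and kinetochore genes, none in the set, were measured alongside, 95 in roles that the set holds and 10 of condensin and the chromosome scaffold, which it does not. Of these 79 fell, 6 rose and 20 were not called (median log2 fold change -0.40), and their summed level was 69.9% of control. Over the 95 genes of shared roles 70 fell, 6 rose and 19 were not called (median -0.39), and the summed level was 75.2% of control. In the centromere group 9 of 14 fell, led by Cenpu (-1.60), a subunit of the same network as Cenpk, and by Oip5 (-0.86), which helps load Cenpa. In the outer kinetochore 11 of 13 fell, led by Pmf1 (-0.93) and Nsl1 (-0.92) of the MIS12 complex, whereas Dsn1 of that complex rose (0.21, edgeR adjusted p 0.0353). That call was lost with DESeq2 (adjusted p 0.217), without a count filter (0.065), against a fold of 1.2 (0.635), and without Ogt iKO replicate 2 (0.162), control replicate 1 (0.121) or control replicate 2 (0.157). Trip13 (-0.74), which recycles Mad2l1, and Sgo1 (-0.56), which protects cohesin, led the checkpoint genes, of which 4 of 6 fell.

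Of 17 anaphase genes 11 fell, led by Ube2c (-1.23), the ubiquitin-conjugating enzyme of the anaphase-promoting complex, and Fbxo5 (-1.13), an inhibitor of that complex. Of 8 motors 7 fell, led by Kif22 (-0.81) and Kif18a (-0.56). Of 23 spindle and midzone genes 18 fell, led by Nusap1 (-1.09) and Dlgap5 (-0.94), while Ckap2 (0.42, edgeR adjusted p 0.00229) and Numa1 (0.17, 0.0369) rose. The call of Numa1 was lost with RLE (0.0562), DESeq2 (0.101), no count filter (0.0691) and a fold of 1.2 (0.863), and without Ogt iKO replicate 1 (0.0535), Ogt iKO replicate 2 (0.0921) or control replicate 1 (log2 fold change 0.10, adjusted p 0.29). Ckap2 was called in every alternative, but its log2 fold change was 0.26 without Ogt iKO replicate 2. The mitotic kinases and regulators were the most mixed: 10 of 14 fell, led by Nek2 (-1.02) and the transcription factor Mybl2 (-0.73), and 3 rose, namely the phosphatase Cdc25b (0.64), the MuvB subunit Lin54 (0.56) and the kinase Mastl (0.26). The call of Mastl was lost against a fold of 1.2 (adjusted p 0.395) and without Ogt iKO replicate 2 (0.0746) or control replicate 2 (0.104). Of 10 condensin and chromosome scaffold genes 9 fell and none rose, with a summed level of 54.8% of control, or 66.3% without Top2a. Top2a, the topoisomerase that untangles sister chromatids, had 10221 and 9803 counts against 24810 and 25231, with no overlap (-1.40, SE 0.0596, adjusted p 1.01e-06), and Ncapg fell by 0.98 on the log2 scale. Exons on the opposite strand cover 26.7% of the exon length of Cenpu (by Primpol), 22.8% of Ube2c (Tnnc2) and 13.4% of Ncapg (Lcorl), so these values too could include reads of a neighbour.

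Genes of DNA replication, which act earlier in the cycle, were also lower. Of 25 such genes 21 fell and none rose (median -0.70), and their summed level was 60.1% of control. The 3 most abundant, subunits of the replicative helicase, gave -0.22 for Mcm2 (a call lost with library totals, adjusted p 0.433, and against a fold of 1.2, 0.651), -0.42 for Mcm5 and -0.98 for Mcm6. The difference between the replication genes and the 40 mitotic genes was not tested.

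**Figure D5:**
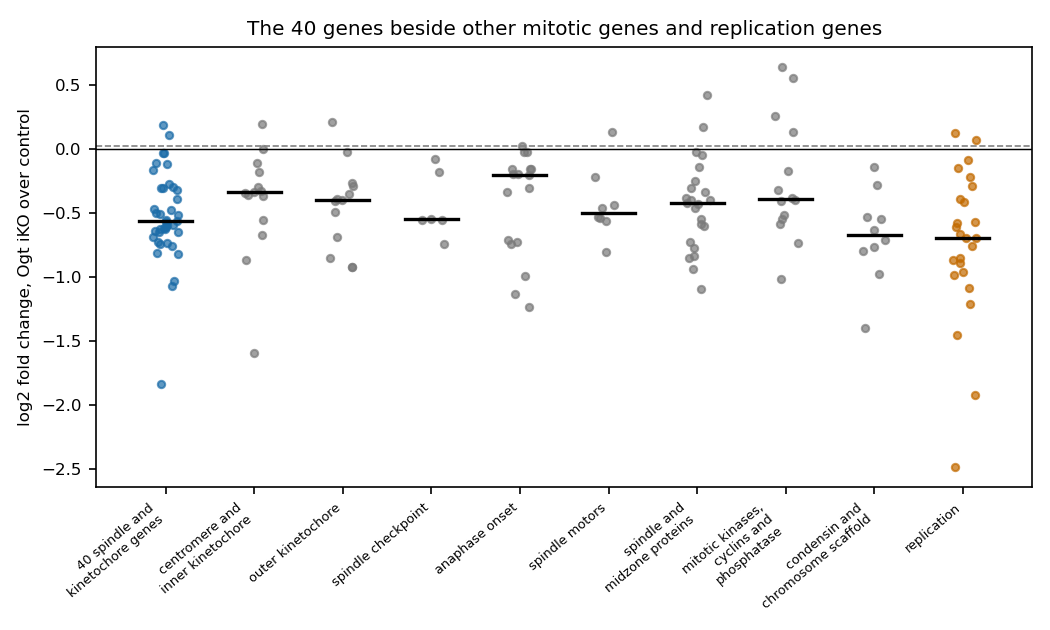
Log2 fold changes (Ogt iKO over control) in the 40 mitotic genes, the 105 other spindle and kinetochore genes split by role (condensin included), and the 25 replication genes, 1 point per gene with bars at the medians and a dashed line at the median of all genes tested (0.02). Every list has a median below that line, at -0.57 for the 40 genes and -0.70 for replication.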

How the data were processed

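Polyadenylated RNA of 2 Ogt iKO and 2 control libraries was sequenced from a stranded kit, per the labels' protocols. The authors deposited 1 table of raw counts per gene symbol for each library. STAR, Picard and the build mm10 are named, per the submitters' processing notes; versions, annotation and the strand counted are not given in the sources used here. Groups were taken from the labels, which do not say that replicates were separate cultures, so p-values measure only the spread between these libraries. Replicates of a group differed by more than sampling noise (chi-square per degree of freedom 7.48 for Ogt iKO, 4.48 for control).

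Counts were tested with edgeR 4.0.16 (R 4.3.3): TMM scaling, its default filter on low counts, the quasi-likelihood test with no covariate, and Benjamini-Hochberg adjustment over 14525 genes at 0.05. An exact permutation test of 2 against 2 libraries cannot go below 0.333, so none is given. SE is the log2 fold change over the square root of F. Detection limits cover counting error only. DESeq2 1.42.0, other scalings, filters and thresholds, a replicate block and leaving out each library were alternatives. The pipeline was tested on simulated data. Genes, coordinates and exon lengths were matched by symbol to the GENCODE annotation of GRCm38, and promoters to RefSeq (GRCm38.p6).

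All 40 genes are named. Counts per library are given, in each role group, for the 2 called genes with the largest absolute log2 fold change, every gene that rose and the gene with the smallest. Of the other 105 genes, up to 2 per role group with the largest change and those called against their group's majority are named, and of the replication and marker lists up to 3 by mean CPM. Every gene of the primitive endoderm and trophectoderm lists was named for completeness. Pdgfrb was named as the feeder marker that rose, and Thy1 and Epcam because the sort used them. Members and lists were chosen with earlier results of these data known.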

Additional observations from a re-analysis of the deposited data

How the results depend on the processing

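The number of the 40 genes called lower was 33 with DESeq2, RLE or upper-quartile scaling and either other count filter, 32 with a robust spread or an adjusted p of 0.01, 27 with library totals or a tested fold of 1.2, and 32 to 35 when 1 library was left out; 26 of the 33 were called lower in every one. The number called higher, 1, became 0 with RLE, DESeq2, no filter, an adjusted p of 0.01 or a tested fold of 1.2, 2 with library totals, and 0 to 2 when 1 library was left out. The other spindle and kinetochore genes called higher, 6, became 3 with an adjusted p of 0.01 or a tested fold of 1.2, 9 with library totals, 5 with RLE, 4 with DESeq2 or no filter, and 3 to 6 when 1 library was left out. Library totals moved the median of all genes from 0.02 to 0.19, that of the 40 genes to -0.40 and that of the other 105 to -0.23; relative to all genes the 40 stayed at -0.59 and the 105 at -0.42. Leaving out 1 library gave medians of -0.66 to -0.48 and of -0.50 to -0.35.

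Signs turned for genes that were not called: with library totals for Cenph (0.0639), Ndc80 (0.0519), Nuf2 (0.00952), Mad2l1 (0.14) and Anln (0.14), with upper quartiles for Mad2l1 (0.0081) and Anln (0.0152), and with 1 library left out for Cenph (-0.22 to 0.0020), Ndc80 (-0.33 to 0.0567) and Anln (-0.10 to 0.0309). The cause was not tested. Same-numbered libraries did not deviate together (r = 0.086), and the labels give the numbers no shared source; with the number as a replicate block, 33 genes were called lower and 1 higher, with a median of -0.57.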
